A study of Mus musculus with 8 samples.

Results

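The genes that encode the NF-kB subunits and their IkB inhibitors were followed through a 4-group experiment on BV-2 cells, a mouse microglial line made by retroviral immortalisation. The 10 genes were Nfkb1, Nfkb2, Rel, Rela, Relb, Nfkbia, Nfkbib, Nfkbie, Nfkbiz and Bcl3. They were chosen by name, through the transcript that each probe was designed on, and were represented by 14 of the 55681 probes on the array that were not controls. All groups were BV-2 cells of the 1 line: control cells received nothing, LPS cells received lipopolysaccharide at 1 µg/mL, HF cells received a hexane fraction (HF) of Amauroderma rugosum, a mushroom, at 100 µg/mL, and LPS+HF cells received both, in each case for 24 h. The experiment asked how HF alters the response of these cells to LPS. RNA of each group was hybridised to 2 single-colour arrays, 8 in all, which the design calls biological duplicates. Nothing says whether they came from separate cultures, so the errors and p-values measure the spread between these arrays, and their number limits the precision of every value.

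NF-kB is a family of dimeric transcription factors. RelA, RelB and c-Rel carry activation domains, while p50 and p52 are cut from the precursors p105 (Nfkb1) and p100 (Nfkb2) and carry none. In resting cells the dimers are held in the cytoplasm by IkB alpha, beta and epsilon. A signal from Toll-like receptor 4, the receptor for LPS, activates the IkB kinases, the IkB proteins are degraded, and the freed dimers enter the nucleus and switch on inflammatory genes in microglia. Several of the family's own genes are among the targets, with Nfkbia the best known example of such feedback. IkB zeta (Nfkbiz) and Bcl-3 are nuclear relatives that act with promoter-bound p50 or p52 dimers rather than holding them in the cytoplasm. The arrays measured messenger RNA only, not the proteins, their degradation or their place in the cell.

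Microglial identity was checked first. All 12 of 12 microglia and macrophage markers, among them Csf1r, Itgam and Aif1, were well above background on every array. Their summed level lay between 9.78 and 9.82 (log2, relative to the array's 75th percentile) on the control and LPS arrays, at 9.39 on both HF arrays and at 9.51 and 9.65 on the LPS+HF arrays. The brightest markers lead this sum, and single markers varied to different degrees over the arrays. Cd68 ran from 7.59 to 7.95 and Spi1 from 0.12 to 0.65, but Csf1r from 4.82 to 7.29 and Laptm5 from 2.35 to 5.25. Markers of other brain cells were less complete. Above background on all arrays were 2 of 5 for astrocytes, 2 of 5 for neurons, 4 of 5 for oligodendrocytes, 1 of 5 for fibroblasts, 2 of 4 for endothelium and 1 of 4 for lymphocytes, while Slc1a3, Map2, Olig2, Col1a1, Tek, Cd3g and Ms4a1 were above background on no array. The summed oligodendrocyte markers stood at 5.57 and 6.02 in control, 5.19 and 5.32 in LPS, 5.00 and 5.88 in HF and 4.39 on both LPS+HF arrays. Their part in the results was not tested. In RNA from whole cultures, fewer cells of a type and less RNA per cell cannot be told apart.

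The promoter sequences of the family are shown because they bear on its self-regulation: they hold, or lack, the letters of the kappaB consensus, the 10-letter DNA word that NF-kB dimers bind. RefSeq windows (build GRCm38.p6) from 250 bases before to 50 bases after a transcript start were matched for 7 of the 10 genes, in 9 windows, since Nfkb2 has several starts. Nfkb1, Relb and Nfkbiz had no entry in that table. On either strand, the consensus was present in windows of 5 genes (Nfkb2, Rel, Nfkbia, Nfkbie and Bcl3) and absent from those of Rela and Nfkbib. Of all 32851 mouse promoters in the table, 8.5% held it, and 0.52% held it at 2 or more separate places. Genes with a match in any window made up 9.6% of 27025. Overlapping matches were counted as 1 place. A match says only that the letters are present, and none of these arrays measured binding. The stretches below run 5′ to 3′ from 230 bases before to 20 bases after the start, with matches to the consensus in capitals.
Nfkb2, chr19:46304507-46304756, plus strand: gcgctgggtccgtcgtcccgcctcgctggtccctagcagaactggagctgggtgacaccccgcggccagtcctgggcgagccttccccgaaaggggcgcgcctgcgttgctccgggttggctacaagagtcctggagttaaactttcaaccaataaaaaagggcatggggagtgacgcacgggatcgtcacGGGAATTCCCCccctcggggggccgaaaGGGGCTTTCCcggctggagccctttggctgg
Nfkbia, chr12:55492628-55492877, minus strand: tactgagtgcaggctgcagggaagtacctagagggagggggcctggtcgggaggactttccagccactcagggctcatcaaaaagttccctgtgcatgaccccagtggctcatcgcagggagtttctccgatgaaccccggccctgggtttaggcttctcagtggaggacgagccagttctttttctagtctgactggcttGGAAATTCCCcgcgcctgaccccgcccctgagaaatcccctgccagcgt
Nfkbie, chr17:45555470-45555719, plus strand: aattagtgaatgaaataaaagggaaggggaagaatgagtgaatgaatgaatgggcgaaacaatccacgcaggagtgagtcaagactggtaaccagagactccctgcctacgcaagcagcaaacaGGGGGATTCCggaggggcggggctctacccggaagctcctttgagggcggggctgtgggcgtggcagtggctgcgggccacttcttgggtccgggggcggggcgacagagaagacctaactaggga
Bcl3, chr7:19822736-19822985, minus strand: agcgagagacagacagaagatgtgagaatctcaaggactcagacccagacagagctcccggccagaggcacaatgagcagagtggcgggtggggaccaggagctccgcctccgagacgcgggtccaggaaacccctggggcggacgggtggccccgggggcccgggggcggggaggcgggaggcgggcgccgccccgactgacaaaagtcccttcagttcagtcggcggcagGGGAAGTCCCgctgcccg
Rela, chr19:5637311-5637560, plus strand: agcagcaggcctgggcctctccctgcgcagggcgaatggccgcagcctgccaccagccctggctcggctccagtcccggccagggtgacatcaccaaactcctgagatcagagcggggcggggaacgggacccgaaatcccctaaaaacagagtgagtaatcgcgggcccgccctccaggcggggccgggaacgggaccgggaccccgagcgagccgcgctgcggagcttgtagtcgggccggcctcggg

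The first start of Nfkb2 held the word at 2 places, at positions -39 and -11 counted from the start, and the former of them can be read on both strands. Its second start held it at -236 and at 11. In the Nfkbia promoter the word GGGAATTTCC lay on the strand opposite to the gene, at -29. Nfkbie carried GGGGGATTCC at -106, and Bcl3 carried GGGAAGTCCC directly after its start, at position 3. In Rel, whose probe was too dim to follow, the word began at -92. A shorter form of the consensus, without its first G, stood in 26.6% of all promoters and was likewise absent from both the Rela and the Nfkbib windows. Among the genes with a window, Nfkb2, Nfkbia, Nfkbie and Bcl3 all rose with LPS and all held the consensus, while Rela and Nfkbib held none and did not pass the test. Nfkbib still differed by 0.60 in log2 (95% interval 0.22 to 0.98), and a second Nfkbib probe passed, so its case is not clear-cut. With so few genes the comparison of promoters and calls is a description, and the windows leave out more distant sites.

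**Figure D1:**
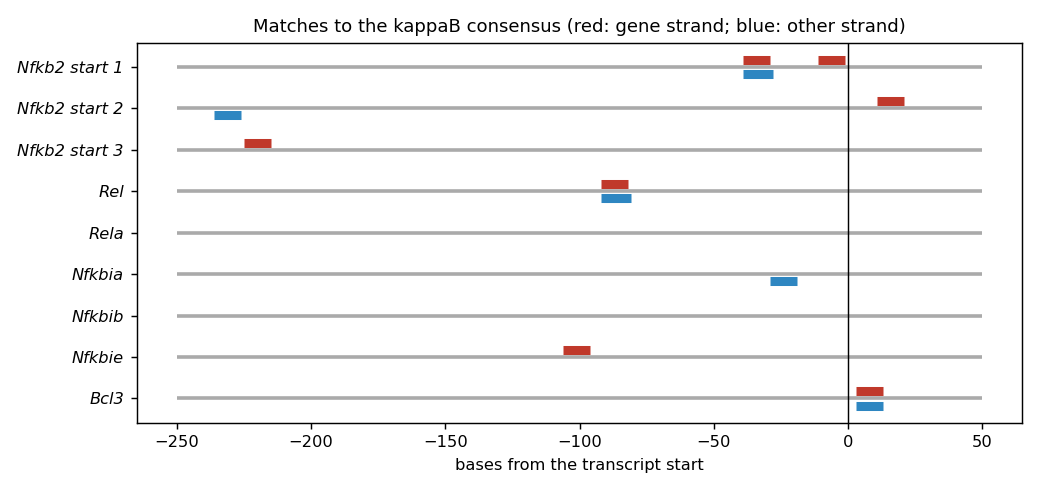
Position of kappaB consensus matches in the 9 RefSeq promoter windows of 7 genes, in bases from the transcript start (250 before to 50 after; red bars, gene strand; blue bars, opposite strand). Rela and Nfkbib have no match, and the first start of Nfkb2 has matches at 2 places close to the start.

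LPS raised most of the family. Compared with control, 6 of the 9 genes that could be tested rose and none fell: the inhibitors Nfkbia and Nfkbie, the nuclear regulators Nfkbiz and Bcl3, the precursor gene Nfkb2 and the subunit Relb. The background share of calls in this comparison was 11.1% of 22460 genes in either direction and 4.8% upward. The median difference over the 9 genes was 1.58 on the log2 scale, against -0.08 over all genes. Rela, which encodes the subunit of the most common activating dimer, did not pass, nor did Nfkb1 or Nfkbib. All levels below are log2 of the spot signal relative to the array's 75th percentile, replicate 1 first. Differences are in log2 with their standard error (SE), from limma with Benjamini-Hochberg adjustment over all genes tested, and a gene passed at an adjusted p under 0.05.

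Among the classical inhibitors, Nfkbia (IkB alpha, degraded and resynthesised within each round of NF-kB activity) stood at 3.22 and 3.25 in control, 5.72 and 5.88 with LPS, 4.21 and 4.27 with HF, and 7.09 and 6.95 with both. The 4 groups did not overlap on any array, and the order was control, HF, LPS, LPS+HF. LPS raised Nfkbia by 2.57 (SE 0.14, adjusted p = 9e-04), which is 5.92-fold, and 0.761% of all genes had a larger value. Nfkbie (IkB epsilon, an inhibitor that acts more slowly than IkB alpha) stood at -0.95 and -1.0 in control, 0.81 and 0.82 with LPS, -0.17 and -0.12 with HF, and 1.63 and 1.18 with both. It had the same order of groups as Nfkbia, again without overlap. LPS raised it by 1.78 (SE 0.18, 3.45-fold, adjusted p = 0.0049), but under normexp with quantile normalization the difference was 1.04 and did not pass (adjusted p = 0.11). Nfkbib (IkB beta, the remaining classical inhibitor) stood at 3.45 and 3.17 in control, 3.95 and 3.87 with LPS, 2.92 and 3.09 with HF, and 3.82 and 3.87 with both. Both groups with LPS were above both groups without it, and the difference from control was 0.60 (95% interval 0.22 to 0.98, adjusted p = 0.063). A second Nfkbib probe gave 0.72 and passed (adjusted p = 0.044), and another, dimmer one gave 0.40 (adjusted p = 0.49).

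The genes of the nuclear IkB proteins showed the largest LPS differences of the family. Bcl3 stood at -0.36 and 0.76 in control, 4.24 and 4.45 with LPS, 0.85 and 0.69 with HF, and 3.09 and 2.94 with both. The control arrays were far apart and overlapped the HF arrays, while both LPS groups lay well above them and were separate from each other. LPS raised Bcl3 by 4.14 (SE 0.35, 17.7-fold, adjusted p = 0.0034), the 39th largest value of 22460 genes. The Bcl3 spot on control replicate 1 lay in a region of that array where signal was dimmed more than 4-fold. Without that array the difference was 3.59 and still passed (adjusted p = 0.0015), and under normexp with quantile normalization it was 4.79 (adjusted p = 0.029). Nfkbiz (IkB zeta, needed in macrophages for a second wave of LPS genes such as Il6 and Lcn2) stood at -2.99 and -2.95 in control, 0.47 and 0.41 with LPS, -2.84 and -2.65 with HF, and 0.39 and 0.46 with both. It formed 2 tight sets of arrays, split by LPS alone. LPS raised it by 3.41 (SE 0.14, 10.6-fold, adjusted p = 0.00037), and it passed in all 22 alternatives. Its size depended on the background correction: under normexp with quantile normalization the rise was 2.19 (adjusted p = 0.0015).

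Of the subunit genes, the members of the non-canonical pathway moved and the classical pair did not pass. Nfkb2 (p100, the precursor of p52 and itself an inhibitor of RelB) stood at 2.29 and 2.07 in control, 3.47 and 3.48 with LPS, 2.50 and 2.49 with HF, and 3.68 and 3.61 with both. Its 4 groups did not overlap, with the widest gap between arrays with and without LPS. LPS raised Nfkb2 by 1.30 (SE 0.14, 2.46-fold, adjusted p = 0.0058). Relb, the usual partner of p52, stood at 1.1 and 0.60 in control, 2.42 and 2.44 with LPS, 0.84 and 0.94 with HF, and 2.85 and 2.59 with both. HF and control arrays overlapped, and all arrays with LPS were higher. LPS raised Relb by 1.58 (SE 0.20, 2.99-fold, adjusted p = 0.0094). A second Relb probe, designed on another transcript, gave 2.02 (adjusted p = 0.0068). Its spot on HF replicate 1 was marked as faulty and is missing from that fit.

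Nfkb1 (p105, the precursor of p50) stood at 0.86 and 0.52 in control, 1.14 and 1.16 with LPS, 0.81 and 0.57 with HF, and 1.45 and 1.61 with both. Control and HF overlapped, LPS was above both, and LPS+HF was highest. The LPS difference was 0.46 (95% interval 0.03 to 0.89, adjusted p = 0.15), and a second Nfkb1 probe gave 0.07 (adjusted p = 0.87). On both probes control replicate 1 was the higher control array, at 0.695 against -0.09 on the second probe. The difference of the first probe was positive in 22 of 22 alternatives, at 0.27 to 0.91, and passed in 4 of them, so Nfkb1 is not clear-cut. Rela stood at 4.64 and 5.11 in control, 4.97 and 5.07 with LPS, 5.24 and 5.35 with HF, and 5.49 and 5.36 with both. The LPS arrays lay between the control arrays, while all arrays with HF were above all arrays without it. The LPS difference of Rela was 0.14 (95% interval -0.33 to 0.61, adjusted p = 0.64), and it was -0.09 without control replicate 1. Rel (c-Rel, a subunit best known from lymphocytes and myeloid cells) was well above background on 1 LPS and 1 LPS+HF array only and was left out of the test. Its measured values ran from -4.88 to -3.43 with no separation of the groups.

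**Figure D2:**
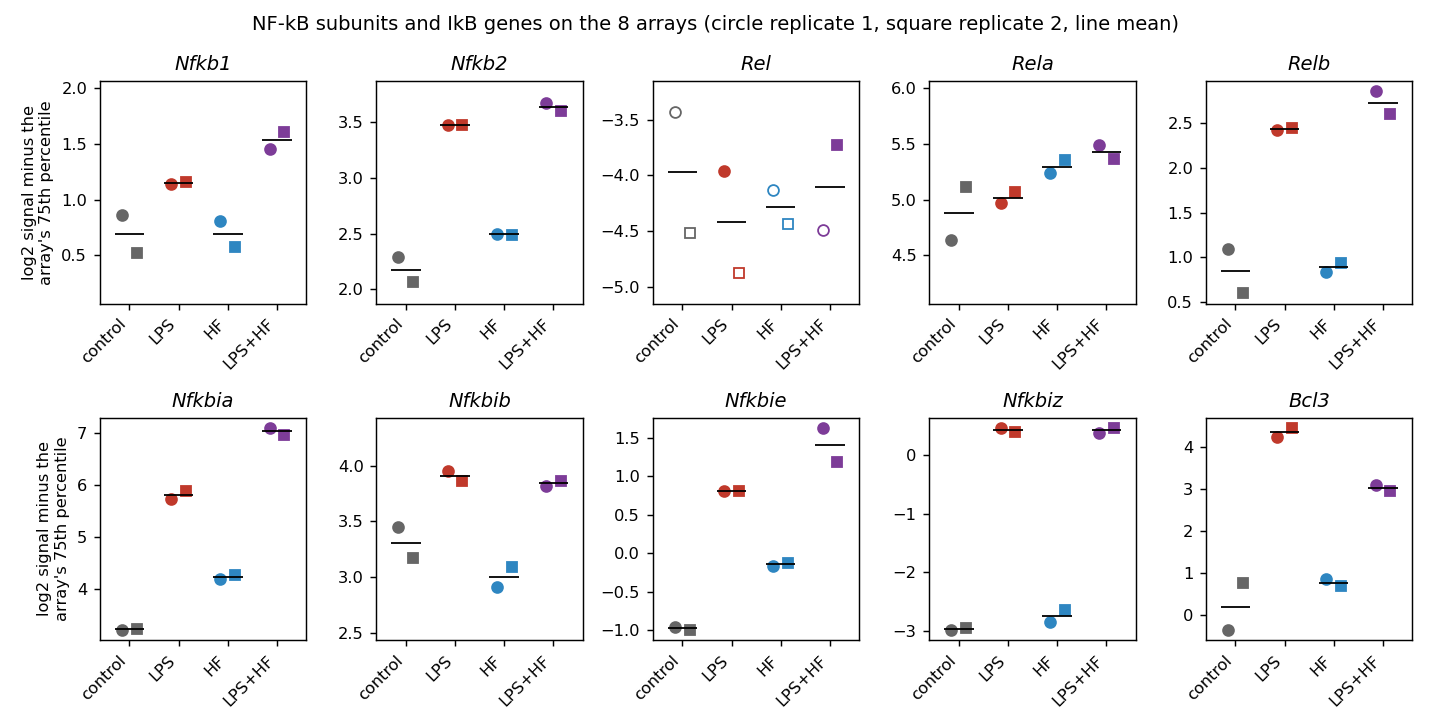
Level of each of the 10 genes on the 8 arrays, as log2 signal minus the array's 75th percentile, by group (circle replicate 1, square replicate 2, line mean; open symbols, not well above background; each panel has its own axis range). Nfkbia and Nfkbie step up from control through HF and LPS to LPS+HF, Nfkbiz splits by LPS alone, and Bcl3 is lower with LPS+HF than with LPS.

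The LPS calls rest on few arrays. Without LPS replicate 1, or without LPS replicate 2, 3 of the 6 genes still passed: Nfkbia, Nfkbiz and Bcl3. Nfkb2 (1.30), Relb (1.57 to 1.59) and Nfkbie (1.78 to 1.79) had nearly the same values in these refits but adjusted p-values between 0.062 and 0.093, while 0.819% and 0.779% of all genes passed. With only the control and LPS arrays fitted, which leaves fewer degrees of freedom, Nfkbiz alone passed and the adjusted p of the other 5 ran from 0.053 to 0.12.

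HF alone moved 1 gene of the family. Nfkbia rose by 1.01 over control (SE 0.14, 2.01-fold, adjusted p = 0.044), where 0.882% of all genes passed in either direction and 0.142% upward. Both HF arrays were above both control arrays, and 4.43% of genes had a larger value. Nfkbie differed by 0.83 (95% interval 0.39 to 1.27, adjusted p = 0.11) and Bcl3 by 0.57 (-0.29 to 1.44, adjusted p = 0.38). Rela differed by 0.42 (adjusted p = 0.29) and Nfkb2 by 0.32 (adjusted p = 0.27). Relb (0.04), Nfkb1 (0.00) and Nfkbiz (0.22) lay nearer 0, and Nfkbib differed by -0.31 (adjusted p = 0.32). The second Relb probe, which lacked HF replicate 1, gave 0.67, so the 2 Relb probes differed here. The median over the 9 genes was 0.32, against -0.07 over all genes. The rise of Nfkbia kept its direction in 22 of 22 alternatives, at 0.91 to 1.39, but passed in 8 of them. It did not pass without either LPS array (adjusted p = 0.15 for each), either HF array (0.23 and 0.21) or either LPS+HF array (0.12 for each). Without control replicate 2, 5 of the 9 genes passed (Nfkbia, Rela, Nfkbie and Bcl3 upward, Nfkbib downward), but so did 45.3% of all genes, so this count is near the background.

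The question of the experiment was what HF does to cells that also receive LPS. Here too Nfkbia was the 1 gene of 9 that passed, going from 5.72 and 5.88 with LPS to 7.09 and 6.95 with LPS+HF. This is a rise of 1.22 (SE 0.14, 95% interval 0.89 to 1.56, adjusted p = 0.013), in a comparison where 6.25% of all genes passed in either direction and 2.99% upward. It was the 336th largest value of 22460 genes. The rise had the same direction in 22 of 22 alternatives and passed in 16. It did not pass without LPS replicate 1 (adjusted p = 0.15), LPS replicate 2 (0.12), LPS+HF replicate 1 (0.097) or LPS+HF replicate 2 (0.10), at values of 1.15 to 1.30.

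Bcl3 went the other way in the same cells. Both LPS+HF arrays (3.09 and 2.94) were below both LPS arrays (4.24 and 4.45), a difference of -1.33 (SE 0.35, 95% interval -2.19 to -0.46) that did not pass (adjusted p = 0.085). Of all genes, 97.8% had a larger value. The direction held in 22 of 22 alternatives, and the difference passed in 6 of them. All groups shared 1 estimate of spread, which for Bcl3 took in the wide control pair. Fitted on the LPS and LPS+HF arrays alone, the Bcl3 difference passed (adjusted p = 0.009), and it passed with control replicate 1 or control replicate 2 left out (adjusted p = 0.0051 for each). In these refits far more of all genes passed as well, 32.9% and 29.2% in place of 6.25%.

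The other genes differed less between LPS+HF and LPS. Nfkbie differed by 0.59 (95% interval 0.15 to 1.03, adjusted p = 0.11), Rela by 0.41 (-0.06 to 0.88, 0.27) and Nfkb1 by 0.38 (-0.05 to 0.81, 0.26). The second Nfkb1 probe gave 0.64 (adjusted p = 0.21). Relb differed by 0.29 and Nfkb2 by 0.16, with adjusted p-values of 0.45 and 0.54. The smallest differences were those of Nfkbiz, at -0.01 (95% interval -0.35 to 0.32, adjusted p = 0.97), and of Nfkbib, at -0.07 (-0.45 to 0.32, 0.85). The median over the 9 genes was 0.30, against -0.07 over all genes. Without either control array 4 of the 9 genes passed (Nfkbia, Rela and Nfkbie upward, Bcl3 downward), in refits where 29.2% of all genes passed.

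**Figure D3:**
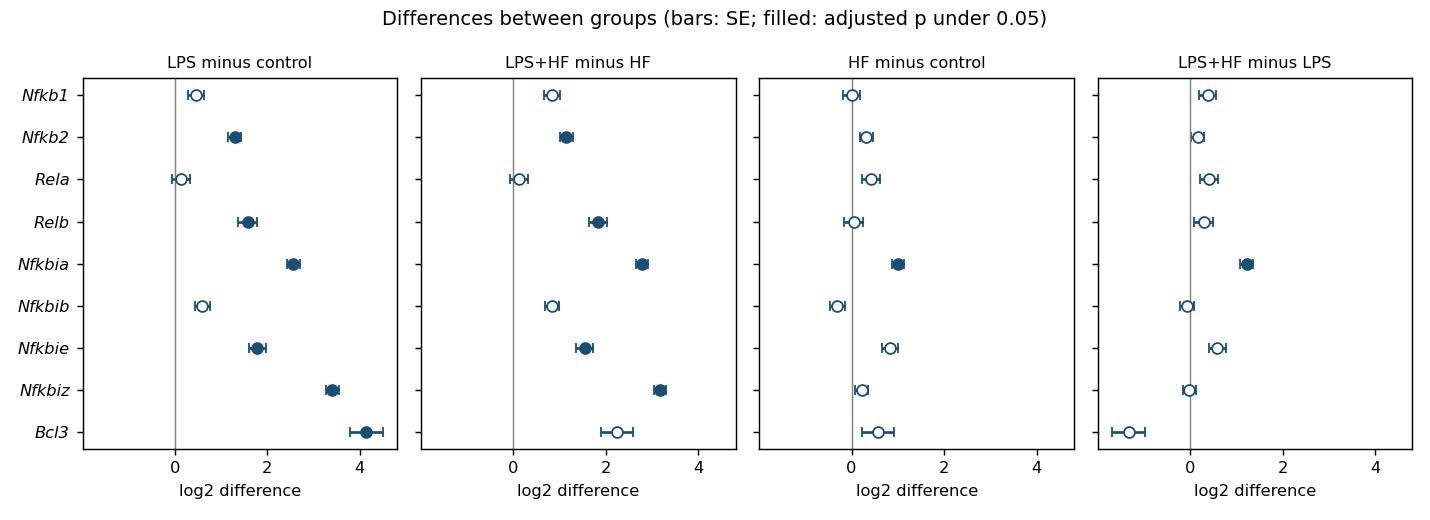
Log2 differences of the 9 tested genes in 4 comparisons (points, fitted difference; bars, SE; filled, adjusted p under 0.05 by limma). LPS raised 6 genes without HF and 5 with HF, and Nfkbia is the 1 filled point in both comparisons for HF.

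The response to LPS was also measured in the presence of HF. In LPS+HF against HF, 5 of 9 genes rose and none fell, where 1.28% of all genes passed in either direction and 0.904% upward. Nfkbiz rose by 3.17 (9.0-fold, adjusted p = 0.00074; 2.14 under normexp with quantile normalization), Nfkbia by 2.78 (6.88-fold, 0.001) and Relb by 1.83 (3.56-fold, 0.016). The second Relb probe, which lacked HF replicate 1, gave 1.62. Nfkbie rose by 1.55 (adjusted p = 0.018) and Nfkb2 by 1.15 (0.02). Bcl3 differed by 2.24 (95% interval 1.38 to 3.11) and missed the threshold (adjusted p = 0.052). Nfkb1 and Nfkbib each differed by 0.84 (adjusted p = 0.12 and 0.086) and Rela by 0.13 (0.96). The median was 1.55, against -0.08 over all genes. With an LPS or HF array left out, or LPS+HF replicate 1, 2 genes passed, and 3 did without LPS+HF replicate 2, where 0.249% to 0.592% of all genes passed.

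Whether the LPS response itself differed with HF was tested as the interaction, the LPS difference with HF minus that without. None of the 9 genes passed by limma, 1 had an unadjusted p under 0.05, and 0.0534% of all genes passed. For Nfkbia the interaction was 0.22 (95% interval -0.26 to 0.69, adjusted p = 0.67): HF added 1.01 without LPS and 1.22 with it. For Nfkbiz it was -0.23 (-0.71 to 0.24, adjusted p = 0.65). The value farthest from 0 was that of Bcl3, -1.90 (-3.12 to -0.68, unadjusted p = 0.009, adjusted p = 0.27), and 98.9% of genes had a larger one. The Bcl3 value depended on the uneven control pair. It was -1.34 (adjusted p = 0.069) without control replicate 1, the array with the dimmed spot, and -2.45 (adjusted p = 0.0021) without control replicate 2, where 35.3% of all genes passed. In the other genes the interaction lay between -0.24 for Nfkbie and 0.38 for Nfkb1. The second Nfkb1 probe gave an interaction of 0.76 (95% interval -0.14 to 1.66, adjusted p = 0.49). For Relb it was 0.25, but -0.40 on the second Relb probe, which lacked HF replicate 1.

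**Figure D4:**
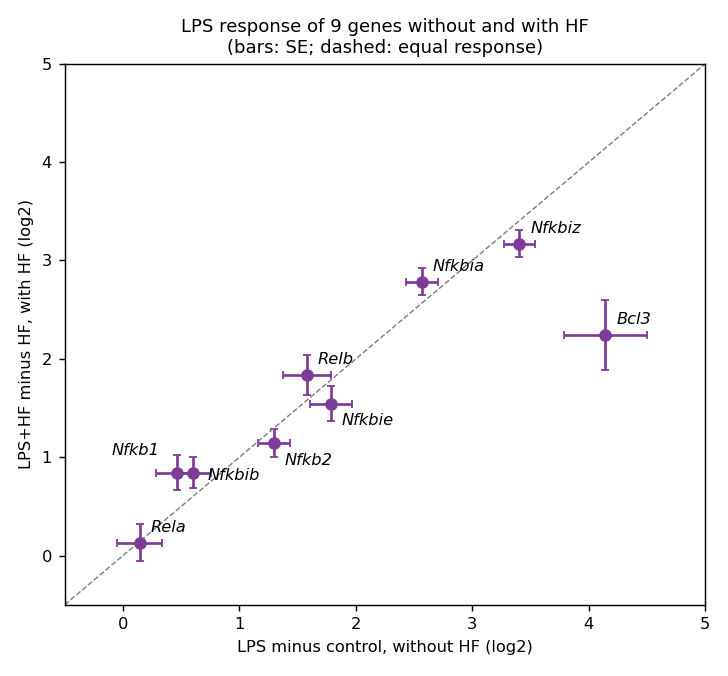
LPS difference of each of 9 genes without HF (horizontal axis, LPS minus control) and with HF (vertical axis, LPS+HF minus HF), both in log2, with SE bars and a dashed line of equal response. Bcl3 lies farthest from the line, at 4.14 without HF and 2.24 with HF, and no interaction passed the test.

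The order of the group means differed between the genes. Nfkb1, Nfkb2, Relb, Nfkbia and Nfkbie ran from control through HF and LPS to LPS+HF, with control and HF at nearly the same mean for Nfkb1 (0.69 each) and Relb (0.85 and 0.89). Nfkbib ran from HF (3.0) through control (3.31) and LPS+HF (3.84) to LPS (3.91), with no tested pair past the threshold. Nfkbiz and Bcl3 were also highest with LPS, where the Nfkbiz means of LPS (0.44) and LPS+HF (0.43) differed by less than the spread between arrays. Rela ran from control (4.88) through LPS (5.02) and HF (5.29) to LPS+HF (5.43). None of its 4 tested pairs of groups passed, and LPS was not compared with HF.

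Genes with the most similar course over the 8 arrays, by Pearson correlation among 13092 genes, were listed for each member as a description, since the arrays share their treatments. For Nfkbia these were Slc11a2, a metal ion transporter (r = 0.998), and Tlr2, a receptor for bacterial lipoproteins (r = 0.993). Nfkbie was most like Nfkbia itself (r = 0.989) and Slc11a2 (0.988), so the 2 inhibitor genes shared their course closely. Bcl3 was most like Adora2a, an adenosine receptor gene (0.996), and Tapbp, an antigen-presentation gene (0.994). Nfkbiz was most like the death receptor gene Fas (0.997) and Clec4a1 (0.994), and Nfkb2 most like Dgat2 (0.997) and Fas (0.992). For Relb they were Acoxl (0.997) and Batf (0.988), for Nfkb1 Icosl (0.965) and Cxcl2 (0.961), for Rela Heca (0.988) and P2rx7 (0.985), and for Nfkbib Ifitm1 and Aoah (0.987 each).

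Genes upstream of the inhibitors were described from lists of the pathway's components. Among 18 genes of the IkB kinase complex and its upstream kinases and adaptors, 2 rose with LPS and none fell, with a median of 0.07. This share, 11.1%, equals that of all genes called in either direction (4.8% upward). They were Ikbke, an IkB kinase relative that phosphorylates interferon regulators (2.01, adjusted p = 0.0035), and the adaptor Traf2 (1.34, adjusted p = 0.0049). Traf2 did not pass without either LPS array (0.068 and 0.065), nor Ikbke without LPS replicate 1 (0.053). The core kinases did not pass: Chuk differed by 0.32 (adjusted p = 0.33) and Ikbkb by -0.02 (0.95). In LPS+HF against LPS, 2 of the 18 rose, the adaptor kinase Irak1 (1.00, adjusted p = 0.049) and the ubiquitin ligase Traf6 (0.83, 0.041), with a median of 0.19. Of all genes, 6.25% passed there in either direction and 2.99% upward. For HF alone the share in either direction was 0.882%, and for LPS+HF against HF it was 1.28%. Irak1 passed in 8 and Traf6 in 12 of 22 alternatives, and neither passed with any LPS, HF or LPS+HF array left out (adjusted p from 0.095 to 0.29). HF alone moved none (median 0.26), and with HF present LPS raised Ikbke (2.18, adjusted p = 0.0052, and 0.05 to 0.075 with any HF or LPS+HF array left out).

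Of 13 measured genes of IkB ubiquitination and ubiquitin editing (14 listed), LPS raised 2, with a median of 0.20. Their share is near the 11.1% of all genes called in either direction, while 4.8% were called upward. Tnfaip3 (A20, an inducible ubiquitin-editing inhibitor of the pathway) rose by 2.48 (adjusted p = 0.0043), and Rnf31, a subunit of the linear ubiquitin ligase, by 0.89 (0.018). Neither passed without either LPS array (Tnfaip3 0.056 and 0.055, Rnf31 0.15 and 0.14), and Rnf31 did not without either HF array (0.051 for each). Tnfaip3 differed by -0.19 between LPS+HF and LPS (adjusted p = 0.69). Of all genes, 0.882% passed for HF alone and 1.28% for LPS+HF against HF, in either direction. Of the 13 genes, 1 passed in LPS+HF against LPS, where 6.25% of all genes passed in either direction and 2.99% upward. Usp7, a deubiquitinase, rose by 0.89 in that comparison (adjusted p = 0.026, passing in 12 of 22 alternatives and in none that left out an LPS, HF or LPS+HF array, 0.071 to 0.22). The list's medians were 0.21 there, 0.13 for HF alone, with no call, and 0.02 for LPS+HF against HF, where Tnfaip3 rose (2.36, adjusted p = 0.01, and 0.07 to 0.11 with any HF or LPS+HF array left out). Of 10 other regulators of NF-kB, 2 rose and 1 fell with LPS (median 0.15), against 4.8% of all genes called upward and 11.1% in either direction. Malt1, a paracaspase, rose by 1.20 (adjusted p = 0.011), and Nkiras1, an inhibitor of IkB degradation, by 0.89 (0.036). Pdlim2, which promotes the breakdown of nuclear RelA, fell by 0.96 (adjusted p = 0.015). None of these 3 passed without either LPS array (0.079 to 0.22), and Nkiras1 also did not pass with any HF or LPS+HF array left out (0.059 to 0.079). None of the 10 passed in LPS+HF against LPS (median 0.01), in HF alone (0.04) or in LPS+HF against HF (0.12). Of all genes, 6.25%, 0.882% and 1.28% passed in these comparisons in either direction, so no call among 10 genes is near these shares.

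Genes known as NF-kB targets moved in both directions when HF was added to LPS. Of 24 listed, 19 were measured, and 13 rose with LPS while none fell (median 2.48). Of all genes, 11.1% were called in that comparison in either direction and 4.8% upward. Il6 and Cxcl2 were not above background in control or in HF. The filter kept them through groups with LPS, so a rise of these genes was favoured in the counts and medians. Il6 rose at least 56.3-fold and Il1b at least 62.8-fold, since their control signal was not above background and the array's dimmest detected signal stood in for it. Ccl5 rose by 6.56 (adjusted p = 0.00042) and Traf1 by 5.21 (0.00037). In LPS+HF against LPS, 2 of the 19 rose and 6 fell (median -0.06), where 6.25% of all genes passed in either direction and 2.99% upward. The chemokine Cxcl2 rose by 2.69 and the cytokine Tnf by 1.23 (adjusted p = 0.011 for each), while Ccl5 fell by 3.09 (0.0099), Il6 by 3.01 (0.008) and Il1b by 2.33 (0.012). Tnf was named after its values were seen, as the other riser. None of these passed without LPS replicate 1 or LPS replicate 2 (adjusted p from 0.11 to 0.13). Nor did Tnf, Il1b and Cxcl2 pass without either LPS+HF array (0.072 to 0.11), or Il6 (0.077) and Ccl5 (0.063) without LPS+HF replicate 2. Nfkbia and Tnf were thus higher, and Il6, Il1b and Ccl5 lower, on the same LPS+HF arrays.

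HF alone left 18 of the 19 targets without a call (median -0.18), where 0.882% of all genes passed in either direction. The exception, Bcl2a1d, a survival gene of the Bcl-2 family, fell by 1.40 (adjusted p = 0.024), and did not pass with any LPS, HF or LPS+HF array left out (0.072 to 0.14). In LPS+HF against HF, 11 of the 19 rose and none fell (median 2.15), where 1.28% of all genes passed in either direction and 0.904% upward. Il6 and Cxcl2, not above background in HF and kept through groups with LPS, are in this count. Cxcl2 rose at least 14.0-fold, Il6 at least 5.95-fold, Ccl5 by 5.33 (adjusted p = 0.0012) and Tnf by 3.88 (0.00039). Of 5 genes that need IkB zeta in macrophages, 2 were measured, Il6 and Lcn2. Lcn2, which encodes an iron-sequestering protein, rose by 7.66 with LPS (adjusted p = 0.00012) and fell by 1.38 between LPS and LPS+HF (0.023), while Nfkbiz itself differed by -0.01 in the latter comparison. The fall of Lcn2 passed in 13 of 22 alternatives and in none that left out an LPS, HF or LPS+HF array (adjusted p from 0.059 to 0.19). No gene of the 5 lists passed in the interaction. LPS minus control and LPS+HF minus LPS share the LPS arrays, and LPS minus control and HF minus control share the control arrays, so their values are given side by side without a test of their relation.

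**Figure D5:**
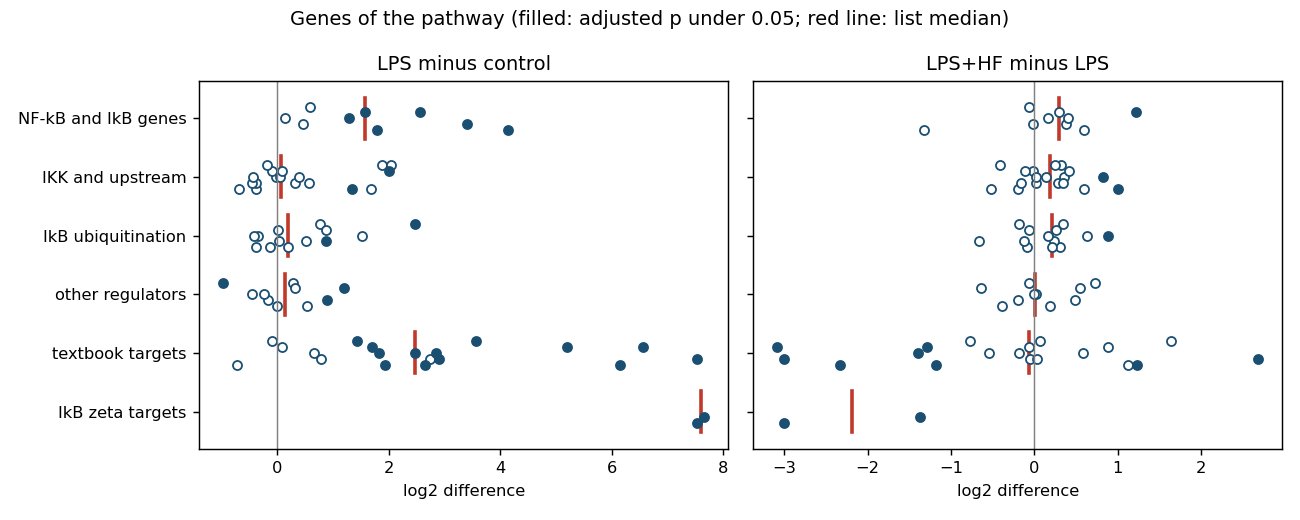
Log2 differences of the NF-kB and IkB genes and of 5 lists of pathway genes, for LPS minus control (left) and LPS+HF minus LPS (right); each point is a gene, filled where the adjusted p is under 0.05, and red lines are list medians. With LPS the targets have a median of 2.48 and the upstream genes 0.07, and in LPS+HF minus LPS 2 targets rose and 6 fell.

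Quality differed between the arrays and bears on the values above. The coefficient of variation of repeated probes was 48.9% on control replicate 1, against 3.77% to 8.06% on the others, and the scanner's report marked control replicate 1 and HF replicate 1 for evaluation. The 75th percentile of brightness was 247 to 286 without HF and 346 to 527 with HF before scaling. All arrays lay on 1 slide, with and without HF in different rows and with and without LPS in different columns, so slide position and treatment cannot be told apart. Under median scaling the median of all genes was 0.27 for LPS minus control and 0.32 for HF minus control, against -0.08 and -0.07 here. No call of the family changed direction under any scaling.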

How the data were processed

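Messenger RNA was measured on 8 single-colour Agilent arrays, 2 in each of 4 groups taken from the labels. Per the file headers, the intensity of each spot came from Agilent Feature Extraction 11.5.1.1, which subtracted background and corrected trends within an array. The log2 values of the series matrix were deposited by the authors; scale and centring were checked by recomputing them (r = 0.99999, column medians -0.112 to 0.187): 75th-percentile shift, then centring on each probe's median.

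Here, log2 signals were averaged over spots not marked as outliers, and each array's 75th percentile was subtracted. A probe was kept (30344 were) where some group had it well above background on both its arrays, and 50.3% of all probes could be named through RefSeq transcripts. The brightest kept probe stood for a gene. limma 3.58.1 (R 4.3.3) was fitted over all 8 arrays (4 residual and 2 prior degrees of freedom), with Benjamini-Hochberg adjustment over 22460 genes, two-sided, threshold 0.05. For genes not above background in a group, "at least" folds use each array's lowest signal above background.

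The family and the lists were chosen with earlier results of these data known. All 10 members are named. Per list and comparison, up to 4 passed genes with the largest difference are named. Likeness takes the 2 genes with the highest correlation. Alternatives covered background correction, scaling, the authors' matrix, the filter on dim probes, the summary of probes, the variance model, the arrays fitted, a replicate block, a spatial correction, leaving out both arrays marked for evaluation, and leaving out each array. For the list genes they were added after the data were seen. The replicate numbers did not pair the samples, so the block is given with the alternatives only. Sequences came from RefSeq promoters (GRCm38.p6), and gene coordinates were not used here. Plots were drawn with Python 3.11.15 and matplotlib 3.10.9.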

Additional observations from a re-analysis of the deposited data

How the results depend on the processing

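The 13 differences of the family that passed kept their direction under all alternatives tried (286 refits), and passed in 227 of these. The 32 that did not pass kept their direction in 660 of 695 refits and passed in 55. The share of all genes that passed also differed between refits, and is given beside most of the counts below. The count of LPS calls (6, with 11.1% of all genes) was 1 when only the arrays compared were fitted (0.298%) and 3 to 8 with 1 array left out (0.779% to 52.7%). The HF count (1, 0.882%) was 0 under normexp with quantile normalization, under quantile normalization alone, median scaling, no filter on dim probes, every probe on its own, only the arrays compared and without both arrays marked for evaluation (0% to 0.775%). It was 3 under the spatial correction (10.6%) and 0 to 5 with 1 array left out (0.0445% to 45.3%). The LPS+HF minus LPS count (1, 6.25%) was 0 under median scaling (0.89%) and without the filter (0.457%), 4 under the spatial correction (29.0%), without both arrays marked for evaluation and on only the arrays compared (32.9% for each), and 0 to 4 with 1 array left out (0% to 29.2%). The LPS+HF minus HF count (5, 1.28%) was 3 under normexp (0.378%) and under median scaling (0.69%), 2 without the filter (0.345%), 8 under the spatial correction (5.00%) and 2 to 8 with 1 array left out (0.249% to 3.95%). The interaction count (0, 0.0534%) was 1 under the spatial correction (3.34%) and 0 to 1 with 1 array left out (0% to 35.3%); the gene was Bcl3.

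Correlations of the deviations of same-numbered arrays ran from -0.09 to 0.27, so the numbers were not taken as pairs. With the replicate block the counts were 6 (7.59% of all genes), 0 (0.196%), 1 (2.64%), 4 and 0, in the order of the comparisons above. The adjusted p of Nfkbia was then 0.093 for HF minus control and 0.034 for LPS+HF minus LPS. With the spatial correction and the replicate block together, 3 genes passed in LPS+HF minus LPS (25.1% of all genes) and 8 in LPS+HF minus HF (3.66%).

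Signs turned only among differences that did not pass. For LPS minus control, Rela was -0.27 under normexp, -0.06 under the spatial correction with and without the block, and -0.09 without both marked arrays, and -0.09 to 0.38 with 1 array left out. For HF minus control, Relb was -0.01 under normexp, Nfkb1 was -0.03 under quantile normalization, 0.00 in the authors' matrix and -0.06 as the mean over probes, Nfkbib was 0.08 under median scaling, and Bcl3 was -0.08 under the spatial correction, -0.06 with the block added and -0.07 without both marked arrays. With 1 array left out, Nfkb1 ran from -0.17 to 0.17 and Relb from -0.20 to 0.29. For LPS+HF minus LPS, Nfkbib was 0.09 and Nfkbiz 0.14 under median scaling, Nfkbib was 0.11 as the mean over probes, and Nfkbiz ran from -0.05 to 0.02 with 1 array left out. For the interaction, normexp gave -0.14 for Nfkb1, 0.29 for Rela and 0.18 for Nfkbie, median scaling -0.02 for Nfkbia and the mean over probes -0.23 for Relb. Rela was 0.13 under the spatial correction with and without the block and 0.17 without both marked arrays, where Relb was -0.05, and Rela ran from -0.25 to 0.23 with 1 array left out. The causes were not tested. Leaving out an array leaves 1 in its group, whose spread is then taken from the other groups. The dim Rel probe, fitted without the filter, differed by -0.45 for LPS minus control (adjusted p = 0.62), and a change in Rel was not detectable at this signal.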
